A study of Homo sapiens with 15 samples.

Results

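Of the 14432 gene rows in the deposited promoter table, 351 gave nuclear RNA although H3K4me3 was near the input level at the start position the table holds for them. They were chosen by their measured values: an H3K4me3 ChIP value under 3 at the start, and a mean of 20 or more CPM (reads of a gene per 1M reads counted in all genes of the library) over 2 nuclear RNA libraries. They made up 5.04% of the 6966 rows with that much RNA. The other 6615 rows with RNA had H3K4me3 values of 3 or more and are called the H3K4me3-marked expressed rows below, and 4816 rows had neither the mark nor the RNA. Every library was made from the HEK293T T-Rex line, human embryonic kidney cells built for inducible transgenes. Total nuclear RNA (2 libraries) and the ChIP libraries of RNA polymerase II (RNAPII), EZH2, H3K27me3, H3K4me3 and input DNA (1 each) came from cells with no transgene. ChIP of PHC1 and of PHC1-dFCS (2 libraries each, deposited as 1 joined column a protein) and PAR-CLIP of PHC1 (2 libraries) came from cells carrying that transgene, kept in hygromycin and captured on streptavidin beads. PAR-CLIP of RNAPII, taken with an antibody to its C-terminal domain, had 1 library from cells fed 100 uM 4-thiouridine (4SU) and 1 from cells fed 100 uM 6-thioguanosine (6SG), with no transgene. PAR-CLIP crosslinks a protein to RNA that carries the fed nucleoside, and the crosslinked stretches are deposited as clusters with their read coverage.

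Trimethylation of lysine 4 on histone H3 (H3K4me3) sits on nucleosomes around active start sites, above all those in CpG-rich DNA, and is placed by the KMT2 and SETD1 methyltransferase complexes. A human gene often has several start sites, each with a promoter of its own, and a table that keeps 1 start per gene measures the chromatin of that start only. RNAPII leaving an active CpG-rich promoter commonly also makes short unstable RNA in the antisense direction just before the start. PHC1 is a subunit of Polycomb repressive complex 1, EZH2 is the enzyme of Polycomb repressive complex 2, and H3K27me3 is the repressive mark that EZH2 places.

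The promoter windows of 4 of the genes with the most RNA are printed because they show the kinds of annotated start in the list. They are RefSeq windows of GRCh38.p14, running from 250 bases before to 50 bases after the RefSeq gene start, with each CpG in capitals. The window of IPO5 (chr13:97953425-97953724, plus strand) and that of TUBA1C (chr12:49227676-49227975, plus strand) hold 5 and 2 CpG. That of CTNNB1 (chr3:41199255-41199554, plus strand) holds 39 and that of ATP2B1 (chr12:89709317-89709616, minus strand) 48.
IPO5: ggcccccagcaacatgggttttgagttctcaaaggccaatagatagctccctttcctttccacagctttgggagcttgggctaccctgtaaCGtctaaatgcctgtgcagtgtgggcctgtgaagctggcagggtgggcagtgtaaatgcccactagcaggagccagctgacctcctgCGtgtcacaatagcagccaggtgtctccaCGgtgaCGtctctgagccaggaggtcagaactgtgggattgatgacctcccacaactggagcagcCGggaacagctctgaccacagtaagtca
TUBA1C: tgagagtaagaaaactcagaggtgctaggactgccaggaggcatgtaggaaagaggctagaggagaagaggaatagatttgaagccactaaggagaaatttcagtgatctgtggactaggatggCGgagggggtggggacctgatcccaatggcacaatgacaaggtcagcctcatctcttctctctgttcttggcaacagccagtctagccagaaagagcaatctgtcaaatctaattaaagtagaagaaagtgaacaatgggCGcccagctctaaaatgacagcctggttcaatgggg
CTNNB1: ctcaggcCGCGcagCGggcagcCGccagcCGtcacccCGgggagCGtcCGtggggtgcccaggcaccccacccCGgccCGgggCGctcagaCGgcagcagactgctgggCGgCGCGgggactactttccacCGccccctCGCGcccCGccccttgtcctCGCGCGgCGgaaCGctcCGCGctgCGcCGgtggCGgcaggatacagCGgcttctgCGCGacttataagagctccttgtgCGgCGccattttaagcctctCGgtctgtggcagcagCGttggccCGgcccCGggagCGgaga
ATP2B1: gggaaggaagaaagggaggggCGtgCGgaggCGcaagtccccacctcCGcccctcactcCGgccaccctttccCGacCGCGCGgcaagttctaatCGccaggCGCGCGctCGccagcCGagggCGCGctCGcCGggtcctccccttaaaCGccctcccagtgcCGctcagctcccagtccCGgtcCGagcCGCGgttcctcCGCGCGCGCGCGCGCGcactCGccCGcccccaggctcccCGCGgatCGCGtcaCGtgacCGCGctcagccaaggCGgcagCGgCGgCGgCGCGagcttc

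RefSeq and the table give IPO5 the same length to the base, and its window is poor in CpG, with 0.21 of the CpG expected from its C and G content. RefSeq gives CTNNB1 4.60 kb less than the table does and ATP2B1 53.3 kb more, and these RefSeq windows reach 0.95 and 1.15 of the expected CpG. The build of the table is hg19, so positions were not compared between the builds, and a difference in length does not say at which end it lies.

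The RNA of the 351 rows was well measured. The libraries held 47.2M and 49.6M reads in genes, of which these rows took 3.79% and 3.78%. Their mean CPM ran from 20.1 to 969 with a median of 64.4, against a median of 89.7 CPM in the H3K4me3-marked expressed rows. Per kb of region the medians were 1.06 and 2.48 CPM per kb, and the regions themselves were longer, with a median of 65.6 kb against 36.5 kb. The SD between the replicates was 2.30% of the mean in the median row. In 117 of the 351 rows the mean reached 100 CPM or more. These values chose the rows and carry no test.

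**Figure D1:**
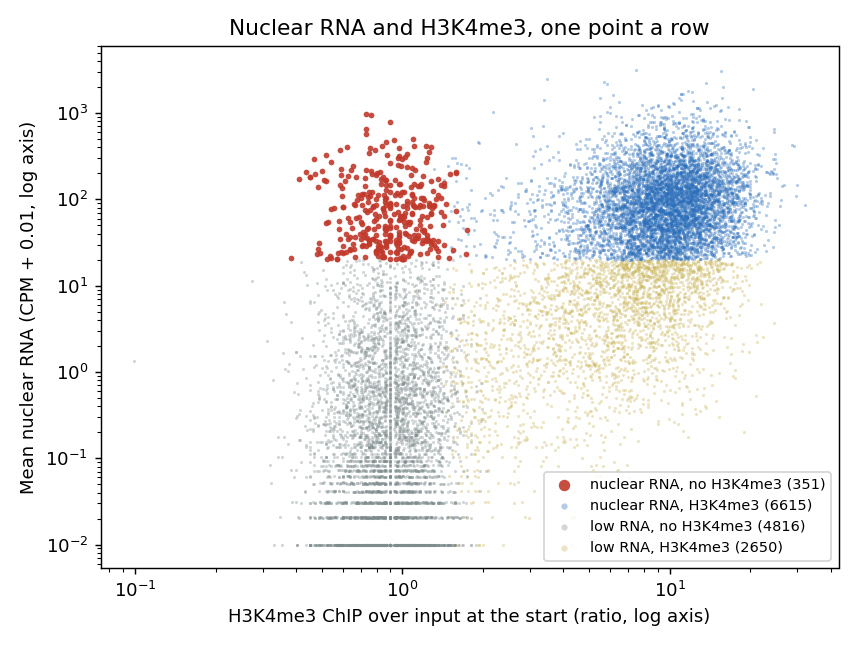
Mean nuclear RNA (CPM plus 0.01, log axis) against H3K4me3 ChIP over input at the start (log axis), 1 point for each of the 14432 rows, coloured by the RNA and H3K4me3 thresholds. The 351 rows with RNA and no H3K4me3 (red) lie at or below 1.74 times the input and reach 969 CPM.

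ROBO1, a receptor for the guidance ligand SLIT, had the highest CPM of all, with 974 and 964 CPM in the RNA replicates, but over 1171 kb that was 0.83 CPM per kb. IPO5, an importin that carries proteins into the nucleus, had 932 and 946 CPM, or 13.3 CPM per kb. CTNNB1, beta-catenin of the Wnt pathway and of cell junctions, had 816 and 770 CPM, and TUBA1C, an alpha-tubulin, had 654 and 661 CPM, or 17.4 and 14.5 CPM per kb. At the table start of these 4 genes H3K4me3 gave 17, 22, 18 and 26 reads, beside 21, 26, 18 and 32 reads of input. The highest level per kb among the 12 rows with the most CPM was that of LINC02067, a long noncoding RNA, at 25.9 CPM per kb. All 5 of its RNAPII 4SU clusters lay 18.7 kb or more into its region of 21.8 kb, and it had 0 clusters with 6SG. The others of the 12 were THSD4, URI1 (a prefoldin-like chaperone), ATP2B1 (a calcium pump of the plasma membrane), ATP13A3 (a polyamine transporter), FAT3 (an atypical cadherin), CCDC91 and NR3C1, the glucocorticoid receptor, with means of 498, 486, 462, 420, 419, 417 and 403 CPM.

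Most of the 351 rows were protein-coding genes, at a share near that of the whole table. Pseudogenes and long noncoding RNAs were more frequent than in the H3K4me3-marked expressed rows, and long noncoding RNAs were less frequent than in the table as a whole. Protein-coding genes made up 319 of 351 (90.9%, Wilson 95% interval 87.4 to 93.5), against 98.1% of the H3K4me3-marked expressed rows and 89.7% of all rows. Transcribed pseudogenes made up 21 of 351 (5.98%, 3.95 to 8.98), against 0.95% and 3.51%, and lncRNA genes 9 of 351 (2.56%, 1.36 to 4.80), against 0.88% and 6.28%. In the rows with neither mark nor RNA pseudogenes made up 7.18% and lncRNA genes 12.5%. 2 rows had no type in the reference table. Intervals of shares cover counting error over rows only.

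The noncoding rows with the most RNA were LINC02067 (566 CPM), BALR6 (323 CPM) and LINC03124 (79.5 CPM) among lncRNAs. Among pseudogenes they were GBA3, NPEPPSP1, PIPSL, ANXA2P2 and HERC2P9, with 123, 87.0, 80.7, 71.0 and 64.4 CPM. Reads of a pseudogene may be split with or taken from its parent gene by the authors' counting, so these levels are uncertain. KIF4B, an intronless copy of the kinesin gene KIF4A, had 21.4 and 19.4 CPM and is uncertain for the same reason.

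Chromatin lists put the rows in context. Of 12 measured genes of H3K4 methyltransferase complexes, 11 were H3K4me3-marked expressed rows and 1, KMT2D, was among the 351. KMT2D, which itself methylates H3K4, had 116 and 109 CPM and 37 reads of H3K4me3 beside 34 of input at its table start. Both measured H3K4 demethylase genes, the 3 replication histone genes and the 5 nuclear lncRNAs measured were H3K4me3-marked expressed rows. Neither of the 2 measured snoRNA host genes was among the 351, and none of the 42 listed small structural RNA genes had a row. Of 7 measured markers of HEK293T cells, 5 were H3K4me3-marked expressed rows, while NEFM had 0.25 CPM and PAX2 7.89 CPM. Markers of fibroblasts, blood, hepatocytes and keratinocytes stayed at or below 1.54, 0.33, 0.23 and 0.011 CPM, and none was among the 351.

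RNAPII was near the input level at these starts. The reads decoded from the deposited value gave a median of 21 RNAPII reads at the 351 starts, against 62 reads at the H3K4me3-marked expressed starts, with 24 and 23 input reads. The ratio of RNAPII over input, both scaled to 10M reads, had a median of 1.06 in the 351 rows, 3.2 in the H3K4me3-marked expressed rows and 1.10 in the rows with neither mark nor RNA. It reached 2 in 4 of 351 rows (1.14%, 0.44 to 2.89), against 5595 of 6615 H3K4me3-marked expressed rows (84.6%, 83.7 to 85.4). Over all rows that share was 47.5%, and over all rows with RNA 80.4%. H3K4me3 and RNAPII at a start usually go together, so a low RNAPII share goes with the rule. Every row of the table, the 351 included, held at least 10 input reads at its start. The same minimum of 10 reads held for RNAPII, H3K4me3, H3K27me3 and EZH2. Starts with fewer reads of any of these are therefore not in the table, which limits how low the ratios can go.

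**Figure D2:**
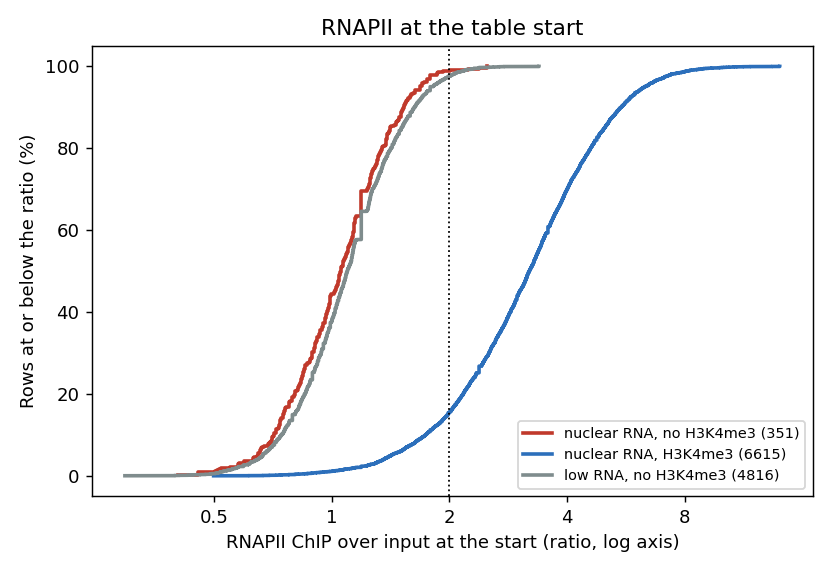
Cumulative share of rows (vertical axis, %) at or below each ratio of RNAPII ChIP over input at the start (log axis), for the 351 rows with RNA and no H3K4me3, the 6615 H3K4me3-marked expressed rows and the 4816 rows with neither. The first and the last of these curves run close together, with medians of 1.06 and 1.10, and the dotted line marks a ratio of 2.

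The 4 rows at or above 2 were ANKAR (21 RNAPII and 10 input reads, a ratio of 2.50), PRAG1 (32 and 16, 2.38), AFF3 (30 and 16, 2.23) and BCORL1 (32 and 19, 2.00). They were named after their values were seen. A count of 21 RNAPII reads has an exact Poisson 95% interval of 13.0 to 32.1, which leaves out the counting error of the input. No interval was computed for a ratio, and whether these 4 ratios exceed counting error was not tested. The 8 starts with the most RNAPII reads were those of C15orf39, ZNF404, TCEA2, CDK5RAP3, COQ8A, LTBP4, GRAMD1A and ZNF573. They had 51, 44, 38, 37, 36, 36, 35 and 35 RNAPII reads, beside 38, 58, 31, 37, 31, 65, 33 and 43 reads of input. Their ratios lay between 0.66 for LTBP4, an extracellular matrix protein that binds latent TGF-beta, and 1.60 for C15orf39.

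Polycomb marks were about as common as in the table as a whole. Their shares lay between those of the H3K4me3-marked expressed rows and those of the rows with neither mark nor RNA. H3K27me3 reached 2 times the input at 5 of 351 starts (1.42%), against 1.86% of all rows. It did so in 0.29% of the H3K4me3-marked expressed rows and 3.24% of the rows with neither. The 5 were PCDH11X, GBA3, NRXN3, CSMD1 and ANKRD26P3, at 2.77, 2.64, 2.36, 2.16 and 2.10 times the input. Of these, NRXN3 (a presynaptic adhesion protein) and PCDH11X (a protocadherin) had means of 378 and 349 CPM. The PCDH11X ratio rests on 37 reads of H3K27me3 beside 12 of input. Most PAR-CLIP coverage of PCDH11X lay on the strand opposite to the gene, with 18 4SU clusters there and 2 on the strand of the gene. EZH2 reached 2 times the input at 7 of 351 starts (1.99%), against 2.06% of all rows, with CSF1R highest at 2.89. The EZH2 share was 0.85% in the H3K4me3-marked expressed rows and 2.97% in the rows with neither. The median ratio was 0.80 for H3K27me3 and 1.02 for EZH2 in the 351 rows, against 0.65 and 0.90 in the H3K4me3-marked expressed rows and 0.90 and 1.13 in the rows with neither. The authors' joined values, scaled before input subtraction, had median ratios over input of 0.99 for PHC1 and 1.14 for PHC1-dFCS at the 351 starts, against 0.99 and 1.2 at the H3K4me3-marked expressed starts. The genes named here for H3K27me3 and EZH2 were picked after their values were seen.

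RNAPII-bound RNA usually began well downstream of the table start in the 351 rows, as it did in the rows with neither mark nor RNA that had any cluster, whereas in most H3K4me3-marked expressed rows it began near the start. The strand of a row was taken from its PAR-CLIP coverage, and a distance runs along that strand from the start of the region to the first 4SU cluster. The median distance was 5.78 kb in the 350 rows with a cluster, against 4.48 kb in the 1526 of 4816 rows with neither mark nor RNA that had one and 0.104 kb in 6590 H3K4me3-marked expressed rows. The first cluster lay 1 kb or more into the region in 258 of 350 rows (73.7%, 68.9 to 78.1), against 1098 of 1526 rows with neither (72.0%), 965 of 6590 H3K4me3-marked expressed rows (14.6%, 13.8 to 15.5) and 3312 of all 10309 rows with a cluster (32.1%). It lay 10 kb or more in for 137 of 350 (39.1%), against 36.0% of the rows with neither and 4.01% of the H3K4me3-marked expressed rows. A late first cluster was thus about as common in unmarked rows with little RNA that had any, but the distances are not fully alike. Numbers of clusters on the strand had medians of 30 per row in the 351 and 33 in the H3K4me3-marked expressed rows. In all 4816 rows with neither mark nor RNA, 3290 of which had no cluster, the median was 0 and the upper quartile 1. Numbers of clusters in only the 1526 of these rows that gave a distance were not summarized. Where strands could be compared, 47.2% of those rows took the strand opposite to RefSeq, and the distance then ran from the other end of the gene. ADGRE3 was the row with no 4SU cluster on the strand taken from its PAR-CLIP coverage, while its RefSeq strand held 5.

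**Figure D3:**
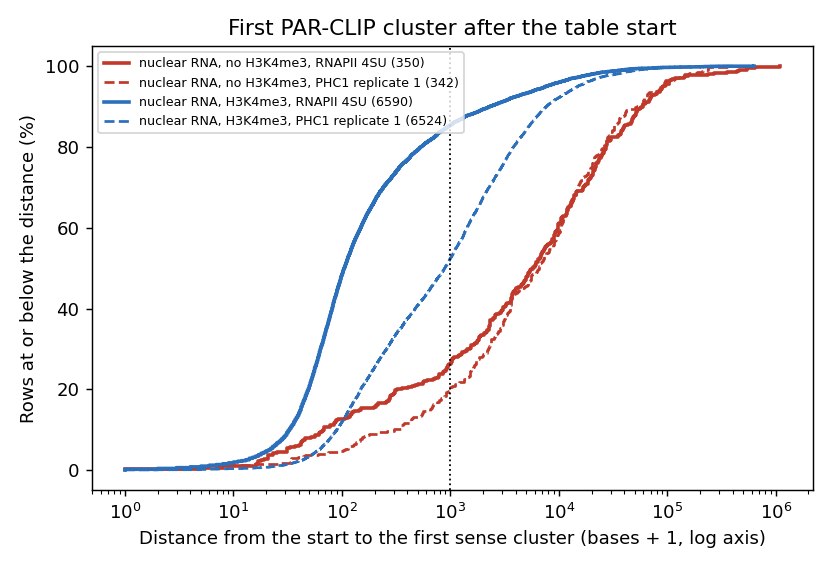
Cumulative share of rows (vertical axis, %) at or below each distance from the table start to the first cluster on the strand of the region (bases plus 1, log axis), for RNAPII 4SU (solid) and PHC1 replicate 1 (dashed). Medians were 5.78 and 6.51 kb in the rows with RNA and no H3K4me3 (red), against 0.104 and 0.887 kb in the H3K4me3-marked expressed rows (blue). The dotted line marks 1 kb.

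The difference from marked rows was seen in regions of every length, while the rows with neither mark nor RNA had shares at or above those of the 351. In regions under 20 kb the first 4SU cluster lay 1 kb or more in for 49.1% of 57 rows, against 52.7% of the rows with neither and 9.77% of the H3K4me3-marked expressed rows. In regions of 20 to 100 kb the shares were 76.7% of 163 rows, against 84.3% and 13.6%, and in longer ones 80.8% of 130 rows, against 96.3% and 24.3%. The share of 4SU signal that fell in the first 1 kb was under 1% in 269 of 350 rows (76.9%), against 72.0% of the rows with neither, 25.0% of the H3K4me3-marked expressed rows and 38.9% of all rows. PHC1 libraries, in which the nucleoside was also 4SU, gave median first distances of 6.51 and 6.24 kb in the 351 rows, against 6.55 and 7.06 kb in the rows with neither and 0.887 and 1.29 kb in the H3K4me3-marked expressed rows. Among the 258 rows with a late 4SU start, the first PHC1 cluster also lay 1 kb or more in for 238 of 251 rows in replicate 1 and for 231 of 245 in replicate 2. These were 94.8% and 94.3%, against 86.6% and 89.3% of the late H3K4me3-marked expressed rows with a PHC1 cluster. The first PHC1 cluster lay within 1 kb of the first 4SU cluster in 85 (33.9%) and 76 (31.0%) of the 251 and 245 rows. In the late H3K4me3-marked expressed rows these shares were close, at 30.4% and 29.2%.

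Several genes show where their RNA signal began. In CTNNB1 (hg19 chr3:41236401-41281939) the first of 66 sense 4SU clusters lay 4.605 kb into the region, and the region is 4.600 kb longer than the RefSeq gene whose CpG-rich window is printed above. In ZNF573, a KRAB zinc finger gene, the corresponding values were 37.448 and 37.453 kb, in CLK4, a kinase of splicing factors, 3.554 and 3.565 kb, in the forkhead gene FOXK1 38.560 and 38.539 kb, and in MTPAP, the mitochondrial poly(A) polymerase, 25.216 and 25.170 kb. CLK4, FOXK1 and MTPAP were named after their values were seen. In all, 41 of the 258 late rows had a region over 1 kb longer than RefSeq. In 11 of these 41 the first 4SU cluster lay within 1 kb of the difference in length. In the others it lay further off, most of all in CDK14, at 21.3 kb against a difference of 130 kb. Such matches were not counted in the other sets, so they cannot be called particular to these rows. ZNF573 had its first PHC1 clusters earlier, at 7.20 kb in replicate 1.

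In other genes the late signal had no counterpart in the RefSeq length. IPO5 (chr13:98605929-98676550) had its first 4SU cluster 3.74 kb in and its first PHC1 clusters 2.35 and 2.34 kb in. URI1 (chr19:30414551-30507519) had its first 4SU cluster at 18.668 kb and its first PHC1 clusters at 18.666 and 19.059 kb, with the RefSeq length within 0.013 kb of the region. NR3C1, known to have several alternative first exons, had them at 30.2 kb for 4SU and 32.3 kb in both PHC1 libraries, in a region of 157.6 kb. TUBA1C (chr12:49621709-49667113) had its first 4SU cluster 37.2 kb into 45.4 kb. ROBO1 had none for 649 kb of its 1171 kb, with PHC1 clusters from 155 and 206 kb. ROBO1, TUBA1C and ZNF573 thus had PHC1 clusters ahead of the first 4SU cluster of RNAPII. In URI1 and CCDC91 these libraries gave nearly the same first position. The first 6SG cluster of RNAPII in TUBA1C lay earlier than its 4SU cluster, 19605 bases in. PHC1 clusters of TUBA1C began at 9.41 kb in replicate 1 and 20.2 kb in replicate 2, so only replicate 1 lay ahead of both RNAPII libraries.

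**Figure D4:**
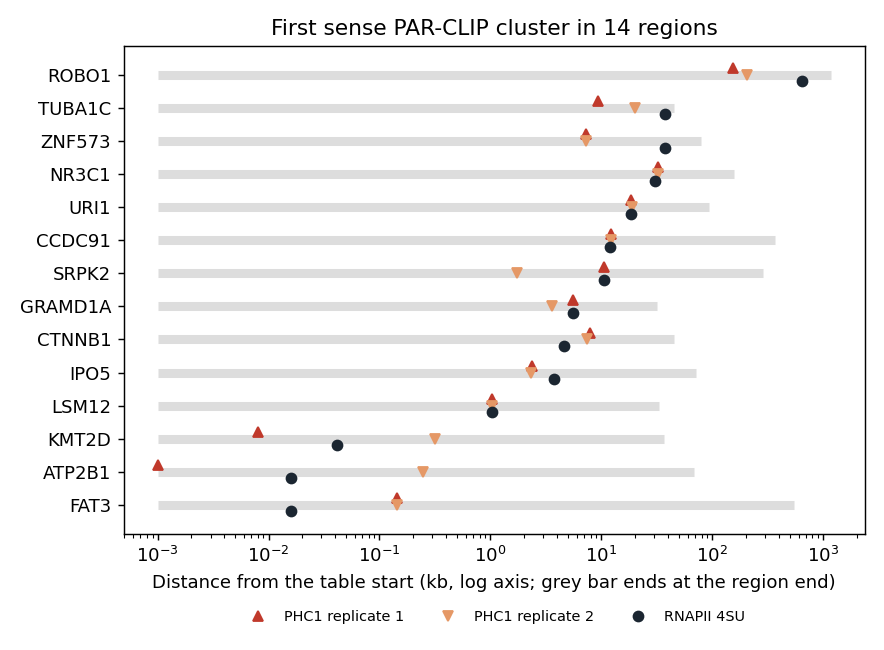
Distance from the table start (kb, log axis) to the first sense cluster of PHC1 replicate 1, PHC1 replicate 2 and RNAPII 4SU in 14 regions, with a grey bar from 0.001 kb to the region end. From ROBO1 to LSM12 the 4SU cluster lies 1 kb or more in (1.035 kb in LSM12), and in KMT2D, ATP2B1 and FAT3 it lies within 0.041 kb.

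Antisense RNAPII clusters before the start, common at marked promoters, were nearly absent at the table starts of the 351 rows, as at other unmarked starts. A 4SU cluster on the other strand lay in the 1 kb before the start in 3 of 351 rows (0.85%, 0.29 to 2.48), against 51 of 4163 rows with neither mark nor RNA (1.23%), 2969 of 6615 H3K4me3-marked expressed rows (44.9%, 43.7 to 46.1) and 25.8% of all rows. Before the first sense cluster such a cluster was found more often. Among rows whose first sense cluster was late, 39 of 258 (15.1%, 11.3 to 20.0) had an antisense cluster in the 1 kb before it, against 54 of 965 late H3K4me3-marked expressed rows (5.60%, 4.31 to 7.23) and 13 of 1098 late rows with neither mark nor RNA (1.18%). GRAMD1A (a cholesterol transfer protein) and SDHAF3 (an assembly factor of succinate dehydrogenase) had 3 such clusters, and NR3C1, RAD50 (a DNA break repair protein) and C15orf39 had 2.

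In 56 of 350 rows sense clusters lay on both sides of the table start, within 1 kb after it and within 5 kb before it. The same held for 298 of 1526 rows with neither mark nor RNA (19.5%) and 1505 of 6590 H3K4me3-marked expressed rows (22.8%). Over all rows with a cluster it held for 2147 of 10309 (20.8%). Sense clusters on both sides were thus no more frequent in the 350 rows than in any of these sets. In these 56 rows RefSeq gave a gene over 1 kb longer than the region in 25 of 54 with a length (46.3%), against 61 of 290 rows with neither and 23.9% of the H3K4me3-marked expressed rows of the same kind. A longer RefSeq gene was not particular to rows with clusters before the start. Among the 351 it was found in 19 of 36 rows with a cluster within 1 kb after the start only (52.8%) and in 68 of 258 late rows (26.4%). ATP2B1 (chr12:89981826-90049844) had its first 4SU cluster 0.016 kb in, 3 further sense clusters in the 5 kb before its start, and the longer RefSeq gene whose CpG-rich window is shown. FAT3 likewise began at 0.016 kb with 3 sense clusters before it, and RefSeq gives it 127 kb more. KMT2D began at 0.041 kb with 14 sense clusters in the 5 kb before its start. BALR6, ATP13A3, COQ8A, ZNF609, HERC2P9, LINC03124, GIGYF1 and TEX15 were of the same kind. The remaining 36 rows had a sense cluster within 1 kb after the start and none in the 5 kb before it. Of these 36, 8 were pseudogenes, against 6 of the 258 late rows. The same contrast was seen in rows with neither mark nor RNA, with 38 of 130 against 79 of 1098 late rows. Over all rows the counts were 112 of 4850 against 110 of 3312.

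Of the 351 rows, 3 (0.85%) had the start of another table gene with an H3K4me3 value of 10 or more in or within 1 kb of their region, against 33 of 4816 rows with neither mark nor RNA (0.69%), 13.0% of the H3K4me3-marked expressed rows and 8.54% of all rows. They were KMT2D, with PRKAG1, TNIP1, with GPX3, and CHID1, with TSPAN4, all 3 named for this count. Regions of the table do not overlap, so a start inside a region could not be found this way, and start sites that the table leaves out were not measured by ChIP.

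RNA from the other strand was more frequent here than among marked genes and less frequent than among unmarked genes with little RNA. In 36 of 278 rows with a RefSeq strand (12.9%, 9.51 to 17.4) most PAR-CLIP coverage lay on the strand opposite to the gene, against 142 of 5448 H3K4me3-marked expressed rows (2.61%, 2.22 to 3.06), 47.2% of rows with neither mark nor RNA and 16.1% of all rows. In 12 of the 36 there was no 4SU cluster at all on the strand of the gene, and in 6 others the 4SU library alone had more coverage on the strand of the gene, among them ADGRE3 (3659 against 0) and SH3D19 (47368 against 5202). CSF1R, the receptor of a macrophage growth factor, had 253 and 243 CPM, 10 4SU clusters on the opposite strand and 0 on its own. SLC16A4, a monocarboxylate transporter family member, had 91 opposite and 7 own clusters, and GLRA2, a glycine receptor subunit, had 81 and 0. SPDYE6 had 65 and 0, CLIP3 54 and 1, and ZKSCAN7 29 and 0. MASP2, a complement protease made by liver, had 20.3 CPM in both RNA replicates, 7 opposite clusters and 0 on its own strand, and the nearest table gene before it along that strand, TARDBP, ends 1.03 kb away. THSD4 had 54 clusters on its own strand and 16 on the other, which held 108150 of summed coverage against 41488. The RNA kit kept the strand, but whether the authors counted by strand is not given in the sources used here, so the CPM of these genes cannot be divided between the strands. Apart from THSD4, these examples were chosen after their values were seen. Where both sources gave the same strand, 187 of 242 rows (77.3%) had a first 4SU cluster at 1 kb or more.

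RefSeq promoter windows of the 351 rows were intermediate in CpG. A window was matched for 278 of 351 rows, with a median of 0.63 of the expected CpG, against 0.87 in 5452 H3K4me3-marked expressed rows and 0.28 in 3279 rows with neither mark nor RNA. Median GC was 59.3%, against 66.0% and 53.7%. The ratio differed with the relation of the annotations. Where region and RefSeq gene had lengths within 1 kb of each other, the median was 0.48 over 151 rows, against 0.87 in the H3K4me3-marked expressed rows. Where the region was over 1 kb longer it was 0.81 over 34 rows, and where RefSeq was over 1 kb longer 0.75 over 93 rows, against 0.87 and 0.86. IPO5 and TUBA1C, with 0.21 and 0.12, lay far below these medians, and URI1, at 1.14 with a length equal to RefSeq within 0.013 kb, lay above them.

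**Figure D5:**
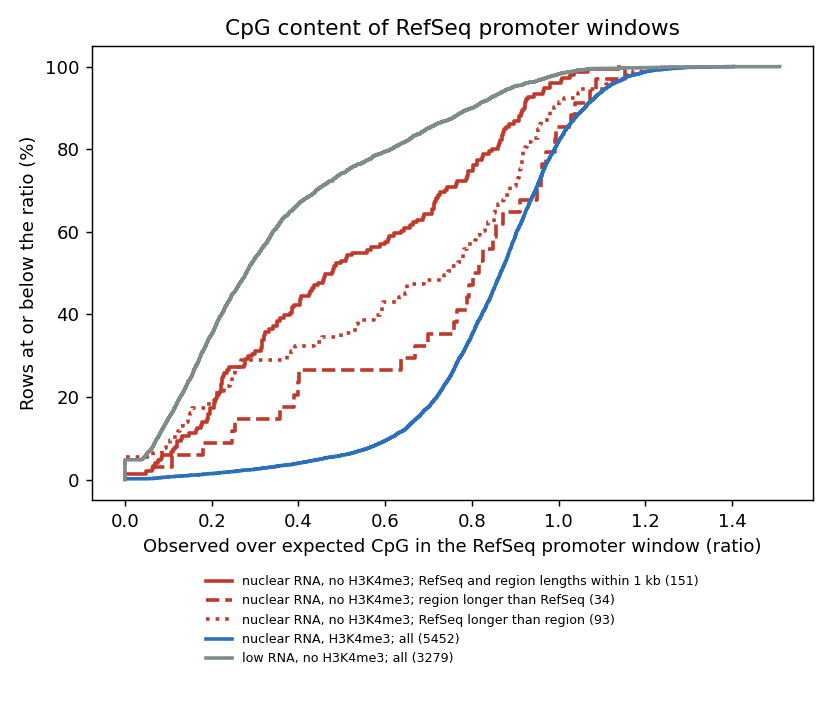
Cumulative share of rows (vertical axis, %) at or below each ratio of observed over expected CpG in the RefSeq promoter window. The rows with RNA and no H3K4me3 (red) are split by how the table region compares in length with the RefSeq gene, with medians of 0.48, 0.81 and 0.75, against 0.87 for the H3K4me3-marked expressed rows (blue) and 0.28 for rows with neither mark nor RNA (grey).

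Annotation differed more often than in marked rows or in the table as a whole. The region was over 1 kb longer than the RefSeq gene in 46 of 349 rows (13.2%, 10.0 to 17.1), against 115 of 6612 H3K4me3-marked expressed rows (1.74%, 1.45 to 2.08) and 2.50% of all rows. RefSeq was over 1 kb longer in 113 of 349 (32.4%, 27.7 to 37.5), against 23.5% and 22.8%. A late first 4SU cluster was found in 41 of the 46 rows whose region was longer (89.1%), in 149 of 190 of about equal length (78.4%) and in 68 of 112 where RefSeq was longer (60.7%), against 29 of 115, 689 of 4924 and 247 of 1548 of the H3K4me3-marked expressed rows and 80.9%, 70.5% and 75.7% of the rows with neither mark nor RNA. The TATA motif TATAAA, searched on both strands, was in 23 of 278 windows (8.27%), near the 8.89% of all 10969 table rows with a window. It was in 4.48% of the H3K4me3-marked expressed rows and 17.6% of the rows with neither mark nor RNA. Among all 27305 RefSeq windows, which include genes without a table row, the share was 12.0%.

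No difference between PHC1 and RNAPII PAR-CLIP signal passed the test in the 351 rows. With limma on log2 of the per-1M value plus 1 (2 libraries against 2), 328 of 351 rows passed the minimum and 0 passed an adjusted p of 0.05, where 0.0% of the 8435 rows tested were called higher and 0.0% lower. At an unadjusted p of 0.05, 50 of the 328 passed (15.2%), against 21.8% of all tested rows. The median log2 fold of PHC1 over RNAPII was 0.31 in the 328 of 351 rows that were tested and 0.59 over all tested rows. Scaling by totals alone instead of TMM factors, with 326 of the 351 tested, lowered these medians to 0.08 and 0.36. PHC1 replicates had a spread of 0.24 (SD, log2) and the RNAPII libraries one of 1.41, and 67 of the 328 rows were listed at 0 with 6SG, whose library held 45259 clusters against 667937 with 4SU. PHC1 and RNAPII libraries also differed in transgene, selection and capture reagent, which cannot be told apart from the protein. With the 4SU library as the only RNAPII control 68 of 320 rows were called higher and 119 lower, where 33.7% of all 8037 rows tested were called higher and 28.0% lower, but that fit gives the lone RNAPII library the spread of the PHC1 replicates. Both PHC1 libraries lay above both RNAPII libraries in 83 of 328 rows (25.3%), against 37.0% of all tested rows, and below both in 80 (24.4%), against 23.0%.

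SRPK2, a kinase of SR splicing factors, stood out in PHC1 PAR-CLIP. It had per-1M values of 2034 and 2263 in the PHC1 replicates, against 621 with 4SU and 253 with 6SG for RNAPII, in a region of 284 kb. The groups did not overlap, and the log2 fold was 2.43 with an SE of 0.52 and a limma adjusted p of 0.152. LSM12 had 713 and 780 for PHC1, against 114 and 122 for RNAPII, a log2 fold of 2.65 with an SE of 0.27 and a limma adjusted p of 0.146. RUBCNL had 2065 and 554 for PHC1, against 2429 and 17.4 for RNAPII, and all of its 4SU signal came from 3 clusters. ROBO1 had 904 and 981 for PHC1, against 635 and 367, and ZNF609 had 683 and 761, against 165 and 560. RAD50 and KMT2D were among the 5 rows with the most 4SU signal, at 720 and 631 per 1M, where PHC1 gave 319 and 306 in RAD50 and 496 and 346 in KMT2D.

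The largest log2 folds of PHC1 over RNAPII belonged to SDHAF3 (5.24), ACACB (4.96, a carboxylase of fatty acid metabolism), ECT2L (4.18), PM20D1-AS1 (4.16) and a row with no symbol (4.12). All 5 were listed at 0 with 6SG, so the size of these folds depends on the pseudocount, and with 4SU they had 26.9, 89.5, 26.3, 28.6 and 14.7 per 1M. The smallest were those of ARHGEF25 (-3.95), KIF4B (-3.69), AHCTF1P1 (-3.16), GIGYF1 (-3.07) and TEX15 (-3.06). AHCTF1P1, a pseudogene, had 15.2 and 9.53 per 1M for PHC1, against 149 and 89.8 for RNAPII, with no overlap and a limma adjusted p of 0.146. GIGYF1, a translation repressor, had 89.2 and 47.8 for PHC1, against 228 and 1352 for RNAPII. None of these 10 passed the threshold. IPO5 had 267 and 246 for PHC1, against 524 and 692 for RNAPII, and CTNNB1 had 168 and 170, against 215 and 178.

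Rows next to the thresholds show how sharp the list is. Just inside the H3K4me3 threshold were ZNF404, RIMKLB and TRIQK at 2.96, 2.74 and 2.67, and just outside it TC2N and ZNF124 at 3.01 and 3.04. Just inside the RNA threshold were GRAMD2B, CLEC2L and WNT3 at 20.1, 20.2 and 20.2 CPM, and just outside it LINC00987, ARHGEF4 and NR1I2 at 19.99, 19.94 and 19.8 CPM. ZNF404 had 77 reads of H3K4me3, 44 of RNAPII and 58 of input, the most H3K4me3 reads of any of the 351 rows.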

How the data were processed

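All libraries were made from HEK293T T-Rex cells, and groups followed the sample titles. The submitters' processing notes name build hg19, Bowtie 0.12.7, TopHat2 2.0.11, Bowtie2 2.2.3 and SAMtools 0.1.19. The cluster caller, the counter of RNA reads and the window at the start are not given in the sources used here.

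The RNA table deposited by the authors holds a whole read count per gene and library, and CPM was taken over column totals. The ChIP table deposited by the authors holds a score: reads at the start per 10M library reads less the input reads scaled likewise. Whole reads of target and input could be recovered for the RNAPII, H3K4me3, H3K27me3 and EZH2 columns in all 14432 rows within a tolerance of 1e-08. Joined PHC1 and PHC1-dFCS scores have no SD or n. The PAR-CLIP signal deposited by the authors is the mean coverage of a cluster. Its product with cluster length was summed over a region and scaled per 1M with TMM factors (edgeR 4.0.16). Summed signal was compared with limma 3.58.1 (trend, robust) after adding a pseudocount of 1 and taking log2, for rows with 5 or more in at least 2 libraries, with Benjamini-Hochberg adjustment over all tested rows and a 2-sided threshold of 0.05. Nothing says that replicates came from separate cultures, so p-values measure only how these libraries varied, and that variation may be technical.

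A cluster was given to the region that contained its midpoint, whichever the strand. The strand was that of most PAR-CLIP coverage, otherwise that of RefSeq. Names, gene types, lengths, strands and promoter windows came from RefSeq tables of GRCh38.p14, matched by Entrez number for 14378 of 14432 rows and for 349 of the 351. No sequence at the hg19 starts was used. A further 1 value column of the RNA table was not used. Chosen with earlier results of these data known were the rows, gene lists, tests and named genes. The rule named the 12 rows with the highest CPM, the 8 with the most RNAPII reads, the 5 highest in 4SU and in PHC1 PAR-CLIP, the 8 highest noncoding rows, the 5 largest and smallest PHC1 folds, the 3 rows nearest each threshold and any row on a gene list. Of the rows so named, 1 is not reported here. The distance to the first cluster, the clusters before the start and the strand comparison were chosen after the data were seen.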

Additional observations from a re-analysis of the deposited data

How the results depend on the processing

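The list held 293 to 481 rows under 5 other thresholds and scalings, H3K4me3 under 1, under 10 or under 2 times the input, 10 CPM, and CPM per kb, and 205 rows with a minimum of 50 CPM. TMM factors left 351. Leaving out RNA replicate 1 or 2 gave 350 and 353 rows. Starts among the 351 with RNAPII enrichment numbered 4 at 2 times the input, 43 at 1.5 times, 0 at 3 times and 195 with a deposited value above 0. Among H3K4me3-marked expressed rows 3 times the input gave 3689. Another marked start was found for 0 rows inside the region, 44 within 10 kb and 1 with H3K4me3 of 50 or more, in place of 3. The number of rows with under 1% of 4SU signal in the first 1 kb stayed between 220 and 298 under the other windows, strands and libraries tried, and that of rows with a late first cluster between 183 and 272 under the 5 alternatives added after the data were seen.

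PHC1 against RNAPII PAR-CLIP gave 0 calls among the 351 under both other pseudocounts, without the low-value filter, with totals alone, with numbers of clusters and without either PHC1 replicate. With 4SU alone as the control 68 rows were higher and 119 lower, with 6SG alone 159 and 77, and with 4SU alone and totals alone, added after the data were seen, 55 and 127. In these 3 fits the single RNAPII library is assumed to vary like the PHC1 replicates, whose spread of 0.24 is far under the 1.41 between the RNAPII libraries, so the calls rest on that assumption. No paired analysis was possible because the groups tested share fewer than 2 replicate numbers. Depth limits single starts, where about 21 RNAPII reads were counted.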
